A study of Homo sapiens with 6 samples.

Results

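The NAT10 knockdown table of an ac4C-seq experiment lists 1001 transcript sites, and all of them were taken here, out of 2353 sites in the tables of both groups. ac4C-seq looks for N4-acetylcytidine (ac4C), an acetylated form of cytidine, and NAT10 is the acetyltransferase that writes it. The cells were PANC-1, an established human pancreatic ductal carcinoma line. The 3 NAT10 knockdown samples were silenced by RNA interference, named in the labels both as small interfering RNA and as short hairpin RNA. The labels of the 3 control samples name both a short hairpin control and WT. Messenger RNA was captured from 30 µg of total RNA of each sample. Most of it was reduced with 100 mM sodium borohydride (NaBH4) at 55 °C for 30 minutes, and a small part was set aside without the reaction. Each number therefore pairs a treated with an untreated library of the same captured RNA, which makes 3 pairs in NAT10 knockdown. The labels do not say whether the 3 samples came from separate cultures, so p-values measure only the spread between these samples, which may be technical.

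Borohydride reduces ac4C to a form that pairs wrongly when the RNA is copied into DNA, so an acetylated cytidine is partly read as T. The untreated aliquot shows which differences from the genome were there before the reaction, such as variants, edited bases and sequencing errors. A base change at A, G or T is not the change that reduced ac4C gives, and the number of reads at a site depends on how much of that transcript reached the library. Reads at a site, and the kind of base change there, are thus separate readouts of what treated and untreated RNA contained.

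A site was listed only where treated RNA had mismatched reads, meaning reads that did not carry the reference base. Every treated library had at least 3 of them at every site, and the untreated libraries had 0 in all. The mismatch level, the percent of reads that were mismatched, was therefore fixed at 0 in untreated RNA by the listing, and it is compared between treated libraries only. Read depth, the sum of the 4 base counts, was not used as such to list a site. It was not fully free of the listing either, because a deep treated library reaches 3 mismatched reads more easily and a shallow untreated library shows none more easily. The sites comprised 390 at A, 292 at C, 158 at G and 161 at T on the transcript strand. All but 17 lay within the span of a protein-coding gene, and 43 lay in more than 1. The spans carried no strand, so a site may lie on the strand opposite to the gene it is named after. Exons and untranslated regions were not analysed here. A site had a median of 180 to 192 reads in the treated libraries and of 142 to 159 in the untreated ones.

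One sample stood apart before any comparison with treatment. Replicate 3 of NAT10 knockdown distributed its reads over the sites differently from replicates 1 and 2, in its treated and in its untreated library alike. The chi-square statistic per degree of freedom between libraries, which is near 1 for counting error alone, was 2.39 for treated replicates 1 and 2, 15.1 for replicates 1 and 3, and 13.4 for replicates 2 and 3. In untreated RNA the same values were 3.00, 12.6 and 10.95. Treated minus untreated comparisons were made within a number for this reason, and those that rest on replicate 3 are given with and without it. The single listed site in NAT10 itself does not check the knockdown, since the control table holds a different NAT10 position. Of the 7 ductal markers looked for, KRT19 had a site, with 173, 173 and 203 treated reads and 132, 113 and 88 untreated reads. A gene without a listed site may still be expressed.

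Sequence could be shown for sites near annotated transcript starts. RefSeq start windows of GRCh38.p14, from 250 bases before to 50 bases after a start, held 28 of the sites, and in 34 of 34 matches the base of the window was the one the table gives on its strand. The 8 sites below lay in a start window on the same strand and were called lower in treated RNA, and are shown because they carry the result on transcript starts. The site is in capitals, and every sequence reads 5′ to 3′ on the strand of the transcript.
CCDC86, chr11:60842099-60842127, plus strand: gggtgtggaaacttAccggctgagccatg
U2AF1, chr21:43107557-43107585, minus strand: tcgtcgcgtccgggTgacgtctcccgagg
PRPF19, chr11:60906562-60906590, minus strand: agggcaatttccgtTaggtgctgaaggct
BCAS2, chr1:114581573-114581601, minus strand: ggtcctcagaatggCgggcacaggtttgg
DHCR7, chr11:71448391-71448419, minus strand: catccgggggcgggCgcccctgccctgcg
PGBD3 (a start within the span of ERCC6), chr10:49524313-49524341, minus strand: agagggagactctgAgggtgaagagtctg
LARP6, chr15:70853903-70853931, minus strand: gctggggcagcgcgAgcgaggaggagccg
TAPBP, chr6:33314130-33314158, minus strand: caggcaccttcaccTaaccagagcgggga
The next sequence is shown for the kinds of change, since it holds 3 listed sites, all in capitals, each with another base change, just upstream of the PSMD12 start.
PSMD12, chr17:67366581-67366609, minus strand: ctgcctgagcgGgtGcgCgggcaacttcc

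Treated RNA gave more reads than untreated RNA in every pair. Summed over the sites, 223988 treated reads stood against 198453 untreated ones in pair 1, 217253 against 178646 in pair 2, and 214580 against 179703 in pair 3. The log2 ratio of treated to untreated reads was thus 0.17, 0.28 and 0.26 in pairs 1 to 3, a mean of 0.24 ± 0.056 (SD, n = 3; two-sided exact sign-flip p = 0.25, the smallest that 3 pairs can give). These totals cover listed sites only, and they also carry how deeply each library was sequenced, which was not tested. At 585 sites (58.4%) treated RNA had more reads in all 3 pairs, and at 101 sites (10.1%) it had no more in any. The site ratios spread widely around a median log2 of 0.24, 0.35 and 0.33.

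The gain in treated reads was smallest at A and largest at G. At A sites the log2 ratio of summed reads was 0.11, 0.23 and 0.18 in the 3 pairs, and at C sites 0.20, 0.29 and 0.30. At T sites it was 0.24, 0.35 and 0.33, and at G sites 0.29, 0.39 and 0.34. The A value was the lowest of the 4 bases and the G value the highest within each of the 3 pairs. The control pairs also had A lowest, with 0.36 ± 0.117 against 0.50 ± 0.141 at C and 0.48 ± 0.111 at G (SD, n = 3). The control means of C and G differed by less than their spread. The control list holds 1352 sites and shares 1 with the NAT10 knockdown list, so the groups are compared over different sites. All listed bases together gave a lower ratio in NAT10 knockdown than in control by 0.19 on the log2 scale, and neither group's values reached into the other's (exact permutation test, two-sided, p = 0.1; no smaller value is possible with 3 samples a group). With the 4 bases tested apart, the smallest Benjamini-Hochberg adjusted p was 0.2. C sites had the largest difference between the groups, 0.24, and T sites the smallest, 0.12.

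**Figure D1:**
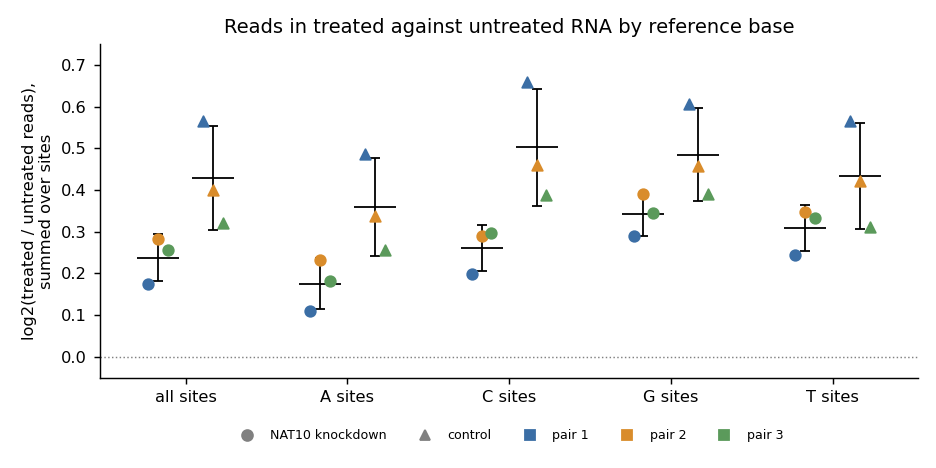
Log2 ratio of treated to untreated reads, summed over all sites or over the sites of each reference base, for the 3 pairs of NAT10 knockdown (circles) and of control (triangles), with horizontal lines at the means and bars for the SD (n = 3). Every ratio lies above 0, A sites have the lowest ratio in each pair of NAT10 knockdown, and each control pair lies above the NAT10 knockdown pairs when all sites are summed. The groups list different sites, apart from 1 site in both.

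To find sites whose depth moved against that of the other sites, reads were compared site by site with edgeR's quasi-likelihood test, with the pair as a block and TMM scaling, which sets the typical site to no change. A total of 975 sites had at least 10 reads in every library. At a Benjamini-Hochberg adjusted p under 0.05, 344 of them were called, which is 35.3% of those tested, with 156 higher in treated RNA (16.0%) and 188 lower (19.3%). The changes were modest, with a median size of 0.48 on the log2 scale among called sites, and 6 sites were called over 2-fold higher and 6 over 2-fold lower. Relative to the summed reads, 155 of the 156 higher sites were above and 186 of the 188 lower sites below in all 3 pairs. Scaling by total reads alone turned the balance, with 189 higher and 145 lower, so that 56.6% of calls were higher against 45.3%. Without the pair as a block 10 sites were called, without replicate 1 168, and without replicate 3 269. The 26 sites with too few reads had median log2 ratios of 0.97, 0.78 and 0.82, above those of all sites.

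**Figure D2:**
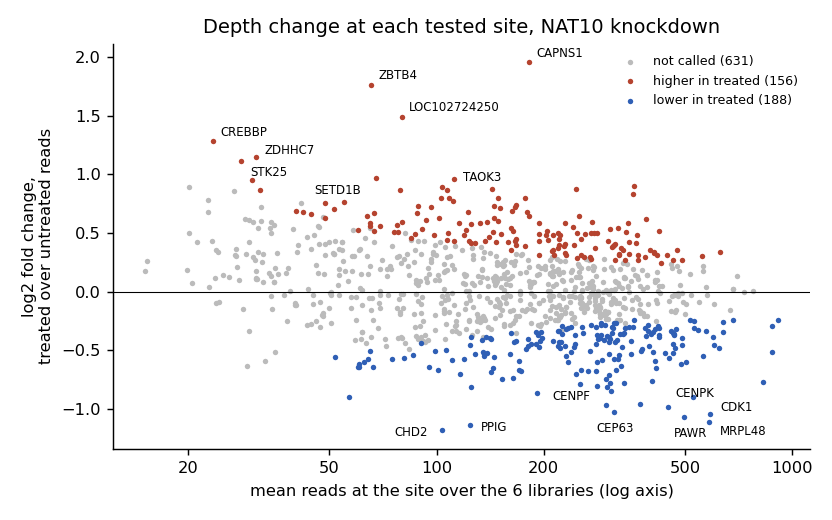
Log2 fold change of treated over untreated reads from edgeR (y axis) against the mean reads of the site over the 6 NAT10 knockdown libraries (x axis, log scale), one point per tested site, with the 8 largest called changes in each direction named. The 188 sites called lower lie mostly at the deeper sites on the right, and CAPNS1 and ZBTB4 have the largest rises.

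CAPNS1, which encodes the small regulatory subunit of calpain proteases, had the largest rise. Its site at position 36141152 of chromosome 19 had 319, 324 and 261 treated reads against 65, 62 and 62 untreated ones. The groups were far apart in every pair, and the fold change was 3.87 (log2 1.95 ± 0.13 SE, edgeR adjusted p = 1.2e-07). ZBTB4, a zinc finger repressor of transcription, had 107, 108 and 101 treated reads at position 7463074 of chromosome 17 and 33, 18 and 25 untreated ones. Its log2 change was 1.76 ± 0.21 (SE, edgeR adjusted p = 2.7e-05). The third rise, at position 634553 of chromosome 1, had 154, 107 and 110 treated reads and 53, 24 and 32 untreated ones. It falls in the span of LOC102724250 and also in that of MTCO3P12, a nuclear copy of a mitochondrial cytochrome oxidase gene, so its reads could belong to either copy and the gene is uncertain.

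The other named rises were in shallower sites. CREBBP, a histone acetyltransferase and transcriptional coactivator, had 38, 25 and 43 treated reads and 10, 11 and 14 untreated ones (log2 1.28 ± 0.34 SE, edgeR adjusted p = 0.0091), and it was not called without replicate 3. ZDHHC7, a palmitoyltransferase, had 57, 34 and 45 treated and 12, 13 and 25 untreated reads, and it was not called without replicate 1. STK25, a kinase of the Golgi, had 40, 49 and 34 treated and 18, 11 and 17 untreated reads. In each of these the lowest treated library was above the highest untreated one. SETD1B, a histone H3 lysine methyltransferase, rose by 0.97 on the log2 scale, from 30, 30 and 60 untreated reads to 101, 75 and 109 treated ones. The site in the span of TAOK3, a protein kinase of stress signalling, had 194, 167 and 114 treated and 79, 68 and 51 untreated reads (log2 0.96 ± 0.15 SE, edgeR adjusted p = 0.00029). It lies on the plus strand, and whether its reads come from the TAOK3 transcript or from the opposite strand was not checked. The control table holds neighbouring TAOK3 positions, and there too treated RNA gave more reads than untreated RNA, 194, 211 and 243 against 60, 82 and 121 at the first of them.

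GATD1, named after its values were seen, had the highest single ratio and was not tested, because its untreated libraries held too few reads. Its A at position 769781 of chromosome 11 had 112, 76 and 40 treated reads and 5, 13 and 7 untreated ones, ratios of 22.4, 5.85 and 5.71. G was read there in 15, 14 and 5 treated reads, a level of 14.8% ± 3.19 (SD, n = 3). With 3 reads the untreated libraries could have shown a level of 60.0%, 23.1% and 42.9%, so G at the treated level was not detectable in any single untreated library. Together these libraries held 25 reads, none of them G by the listing.

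The falls were in sites of moderate depth, such as those of CHD2 and PPIG, and in deeper ones, such as that of MRPL48. CHD2, a chromatin remodelling enzyme, had 75, 55 and 88 treated reads at position 92996990 of chromosome 15 against 109, 125 and 168 untreated ones, a fold change of 2.27 downwards (log2 -1.18 ± 0.17 SE, edgeR adjusted p = 0.00013). PPIG, a nuclear prolyl isomerase, had 79, 74 and 116 treated and 161, 150 and 165 untreated reads. MRPL48, a protein of the large subunit of the mitochondrial ribosome, had 460, 439 and 371 treated reads and 805, 711 and 711 untreated ones (log2 -1.11 ± 0.09 SE, edgeR adjusted p = 4.5e-07). In all 3 genes the treated libraries lay below all untreated ones. PAWR, a regulator of cell death, had 320, 388 and 394 treated and 709, 638 and 532 untreated reads.

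The remaining falls by rank were in 4 genes of cell division. CDK1, the kinase that drives entry into mitosis, had 434, 439 and 437 treated reads at position 60784733 of chromosome 10 and 862, 662 and 683 untreated ones (log2 -1.04 ± 0.09 SE, edgeR adjusted p = 8.9e-07). CEP63, a centrosome protein, had 212, 262 and 241 treated and 439, 366 and 377 untreated reads. CENPK, a kinetochore protein, had 298, 369 and 361 treated and 585, 474 and 596 untreated reads. No treated library reached any untreated one at these sites. CENPF, a large kinetochore-associated protein, had 254, 253 and 188 treated and 421, 390 and 295 untreated reads (log2 -0.97 ± 0.09 SE, edgeR adjusted p = 5e-06). The genes came from the ranking, and no list of cell division genes was tested. The control holds a pair of other CENPF positions, with log2 ratios of -0.77 and -0.50 relative to its summed reads, and a CDK1 position with 0.15.

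Calls were also counted by reference base, side by side and without a test. Of 385 tested A sites, 93 (24.2%) were lower and 54 higher, and of 289 C sites 58 (20.1%) were lower and 49 (16.96%) higher. G sites had the opposite balance, with 18 of 153 (11.8%) lower and 35 (22.9%) higher. T sites had 19 of 148 (12.8%) lower and 18 (12.2%) higher. The median log2 change was -0.04 at A and 0.13 at G. With total reads as the scale the A median was 0.02, a change of sign, and the G median 0.20. Without replicate 3, 69 A sites were lower and 29 G sites higher, and without replicate 1 the counts were 51 and 15. Depth moved with these shares as well. In the deepest 325 sites 33.8% were called lower, against 6.46% of the shallowest 325, and the part of depth in the shares by base was not tested.

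Along genes, calls of lower depth made up a larger share at the 5′ side, as a count without a test. In the first 2% of the gene span 19 of 64 tested sites (29.7%) were called lower and 7 (10.9%) higher, against 19.3% and 16.0% of all tested sites. From 2 to 10% of the span 13 of 41 (31.7%) were lower. The share lower fell towards the 3′ side, to 17.2% of 408 sites between 50 and 90% of the span and to 12.5% of 64 in the last 2%. Sites called lower lay at a median of 63.1% of the span and those called higher at 76.9%. These spans hold introns, so they give order along a gene and not a distance along its messenger RNA. The 5′ end was set by the strand of the site, so the order is reversed for a site opposite to its gene. Sites in the last 2% had a median depth of 118.5 reads, against 155.2 in the first 2%. The part of depth in these shares was not tested. Relative to the summed reads, the median log2 ratio in the first 2% of the span was -0.08 in NAT10 knockdown and 0.30 in control. These are different sites in each group.

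**Figure D3:**
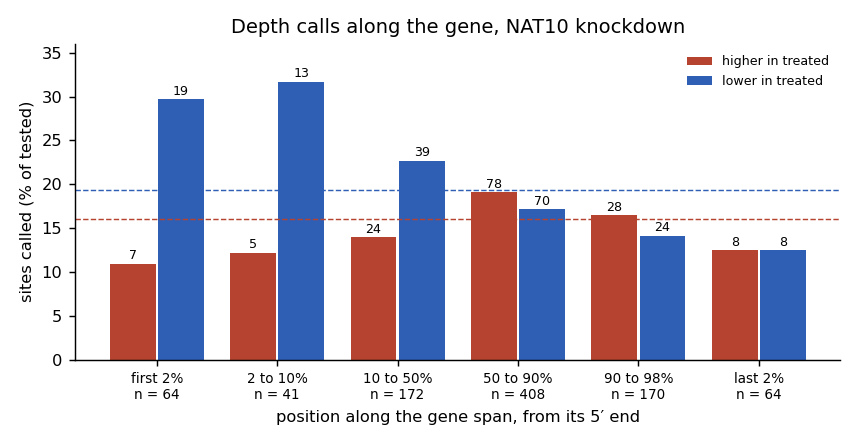
Percent of tested NAT10 knockdown sites called higher (red) or lower (blue) in treated RNA, by position along the gene span from its 5′ end, with the number of sites above each bar and dashed lines at the share of all tested sites. Calls of lower depth make up 29.7% of sites in the first 2% of the span and 12.5% in the last 2%.

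Around annotated starts the single sites can be shown. All 22 sites on the strand of the window were tested, and 8 (36.4%) were lower and 0 higher, with a median log2 change of -0.26. U2AF1, whose product reads the 3′ splice site, was among the printed sites and lay next to its annotated start. It had 44, 36 and 56 treated reads and 66, 65 and 74 untreated ones, so that every treated library was below every untreated one (log2 -0.90 ± 0.20 SE, edgeR adjusted p = 0.0034). PRPF19, an E3 ligase of the spliceosome, had 91, 109 and 96 treated and 140, 115 and 88 untreated reads in its window, and the treated and untreated counts overlapped.

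Replicates differed in this result. The median log2 ratio of the 22 sites, relative to that of the summed reads, was -0.47 in pair 1, -0.29 in pair 2 and -0.05 in pair 3. Without replicate 3, 9 were lower, and without replicate 1 U2AF1 alone was. In the 61 control sites of such windows 30 (49.2%) had a mean ratio below that of the summed reads, against 19 of 22 (86.4%) in NAT10 knockdown. Among all other listed sites it was 398 of 979 (40.7%) in NAT10 knockdown and 559 of 1291 (43.3%) in control. The windows hold different sites in each group, and the difference between the groups was not tested. Among the 22 sites are neighbouring bases that share reads, such as the 3 printed for PSMD12. With 1 site per gene, where sites in no protein-coding gene were each kept, 18 were tested and 5 were lower.

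The kinds of base change were then counted in the mismatched reads of each treated library. A-to-T, A-to-G and C-to-T changes had the largest shares in all 3. Shares depend on how many sites of each base were listed, 390 at A, 292 at C, 158 at G and 161 at T. A-to-T made up 17.5%, 18.3% and 18.1% of mismatched reads in replicates 1 to 3. A-to-G made up 18.2%, 16.6% and 16.5%, and C-to-T, the change that reduced ac4C gives, 15.4%, 15.1% and 15.6%. A second tier was formed by C-to-G, at 9.91%, 10.1% and 9.58%, and G-to-A, at 8.74%, 8.88% and 8.38%. The least frequent was G-to-C, at 2.03%, 2.06% and 2.12%. Taken instead as a mean level per site of its base, G-to-A was highest at 3.17%, then T-to-C at 2.76% and T-to-G at 2.49%. By that measure A-to-G stood at 1.78%, C-to-T at 1.57% and A-to-T at 1.20%. Levels depend on depth as well, as given further below. The 12 shares of a library were set against those of another as the sum of the gains in share, which equals that of the losses. It was 2.86 points between replicates 1 and 2, 3.29 between 1 and 3 and 1.86 between 2 and 3. Replicate 3 was thus no farther from replicate 2 than replicate 1 was.

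**Figure D4:**
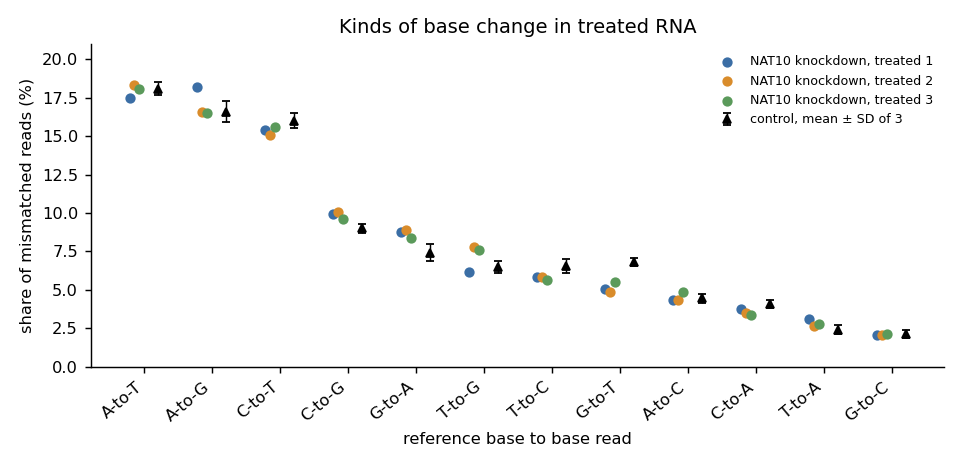
Share of each of the 12 base changes among mismatched reads in the 3 treated NAT10 knockdown libraries (circles) and the control mean with its SD (triangles, n = 3), ordered by the NAT10 knockdown mean. A-to-T, A-to-G and C-to-T stand at 15.1% to 18.3% in every NAT10 knockdown library, and replicate 3 lies near the other replicates for all changes. Shares depend on how many sites of each base were listed.

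A share over all reads can hide what single sites do, so the leading change, the other base with the most reads, was taken at each site. It was the same in all 3 treated libraries at 444 sites (44.4%). By pairs, replicates 1 and 2 had the same leading change at 70.6% of the sites where neither had a tie, replicates 1 and 3 at 67.6% and replicates 2 and 3 at 69.3%. Replicate 3 alone differed from a shared change of the others at 115 sites, replicate 1 alone at 104 and replicate 2 alone at 97. With at least 3 reads and 70% of the mismatched reads asked of it, a leading change shared by all 3 libraries was found at 314 sites.

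Repeatability depended on the change. C-to-T led in every library at 96 of 292 C sites (32.9%), and G-to-A at 54 of 158 G sites (34.2%). T-to-G led in all 3 at 48 of 161 T sites (29.8%), but T-to-A at 2. At A sites A-to-T did so at 70 of 390 (17.9%) and A-to-G at 61 (15.6%). In treated depth, 13 of the 52 tested sites with a repeated G-to-A change were called higher and 2 lower. Among the 96 with a repeated C-to-T change, 14 were called higher and 27 lower. Of all tested sites 16.0% were higher and 19.3% lower. Of tested G sites 22.9% were higher and 11.8% lower, and of tested C sites 16.96% were higher and 20.1% lower. These counts were set side by side without a test.

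Of the sites with a repeated change, the highest level of each kind was looked up among those with at least 30 reads in every library. C-to-G was highest at the printed PSMD12 window, where G was read at position 67366592 in 4, 5 and 6 of 37, 32 and 60 treated reads (12.1% ± 3.04, SD, n = 3). At the G beside it, position 67366595, T was read in 6, 5 and 7 reads, and at position 67366598 A in 6, 5 and 7. The numbers of mismatched reads at the last 2 were the same in each library, while the bases read differed. C-to-T was highest in OBI1, a ubiquitin ligase of replication origins, with 3, 3 and 8 T reads of 88, 77 and 71. Its level was 3.41%, 3.90% and 11.3%, so replicate 3 was over 2 times either other replicate.

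T-to-C was highest in MRPL38, another protein of the mitochondrial ribosome, with 5, 8 and 5 of 61, 57 and 54 reads (10.5% ± 3.11, SD, n = 3). T-to-G was highest at the printed U2AF1 start, with 5, 3 and 4 of 44, 36 and 56 reads (8.95% ± 2.18, SD, n = 3). For A-to-C and A-to-G the highest sites lay 3 bases apart in SCAF11, a splicing-associated factor. C was read at the first of these in 3, 4 and 4 reads and G at the second in 3, 4 and 4. Adjacent sites such as these share reads and are not separate observations. A total of 119 sites had a listed neighbour within 10 bases. G-to-A was highest in ETV5, a transcription factor of the ETS family, with 8, 3 and 3 A reads of 65, 86 and 46, where replicate 1 was high.

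G-to-T had its highest site in GID8, a subunit of a ubiquitin ligase complex, at 7.62% ± 0.68 (SD, n = 3), and A-to-T in ABLIM3, an actin-binding protein, at 5.79% ± 2.05. C-to-A peaked in PPP1R18, a phosphatase regulatory subunit, at 4.11% ± 0.48. For T-to-A the highest site was in AHNAK2, a giant scaffold protein, at 2.48% ± 0.21, and for G-to-C in ATP6V0C, a subunit of the vacuolar proton pump, at 1.25% ± 0.32. The highest repeated level thus ranged from 1.25% for G-to-C to 12.1% for C-to-G, and each of these sites was at 0 in untreated RNA by the listing.

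Whether a treated level stood above what the untreated reads could have shown depends on depth. A count of 0 allows up to 3 reads of the total. This limit had a median of 1.89%, 2.08% and 2.11% in untreated libraries 1 to 3, close to the median treated level of 2.29%, 2.33% and 2.40%. The treated level was above the limit of its own pair in all 3 pairs at 325 sites (32.5%) and in no pair at 139 (13.9%). At C sites it was so in all 3 pairs at 103 of 292 (35.3%), at A sites at 141 of 390 (36.2%). With 3 or more mismatched reads in each treated library by the listing, a site passed wherever its untreated library was the deeper of the pair, and these counts follow depth in part. When the lower bound of the 95% Wilson interval of the treated level had to pass the limit of the pair, 2 sites remained. Such intervals and limits hold no more than counting error. Levels ran opposite to depth, with a Spearman correlation over the 1001 sites of -0.90, -0.90 and -0.91 in replicates 1 to 3, as a minimum of 3 mismatched reads makes a shallow site's level high.

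Replicate 3 was examined on its own. Relative to the mean of replicates 1 and 2 and scaled to total reads, the shift of a site in treated replicate 3 went with its shift in untreated replicate 3, with a Pearson correlation of 0.74 over the 1001 sites. The same comparison gave 0.43 for replicate 1, 0.43 for replicate 2 and 0.25 for replicate 3 of the control. Within NAT10 knockdown the shifts of replicates 1 and 2 hold replicate 3 in their yardstick. Since treated and untreated libraries of a number share their RNA, these correlations describe the sample and not the treatment. In replicate 3, 11 sites (1.1%) were over 2-fold higher and 14 (1.4%) over 2-fold lower in both of its libraries, against 5 in either direction for replicate 1 and 4 for replicate 2. Each of the 3 control replicates had 1 such site.

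**Figure D5:**
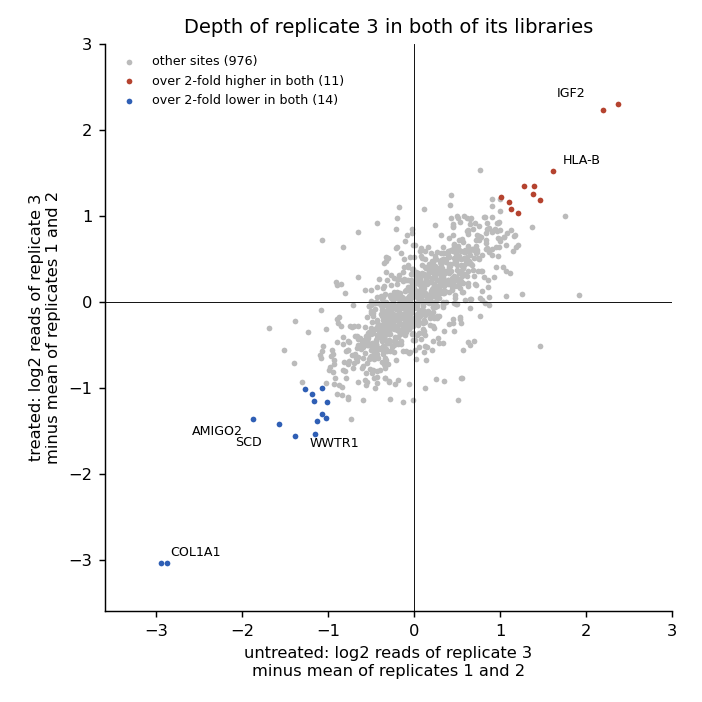
Log2 reads of replicate 3 minus the mean of replicates 1 and 2 in untreated (x axis) and treated (y axis) RNA of NAT10 knockdown, scaled to total reads, one point per site. The sites of COL1A1 lie about 3 log2 units below and those of IGF2 more than 2 above 0 in both libraries, and the other sites spread along the diagonal.

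The 14 sites low in replicate 3 lay in 12 genes, which were not tested as a group. COL1A1, the alpha 1 chain of type I collagen, had 566, 536 and 65 treated reads and 329, 351 and 42 untreated ones at position 50185795 of chromosome 17, a shift of 8.24-fold and 7.72-fold downwards. Its second site, 4 bases away, shares these reads. COL1A1 was the only gene with a site among 3 markers of other cell types looked for, and PTPRC and PECAM1 had none. In bulk RNA, fewer cells of a type and less RNA per cell cannot be told apart, and their part in this shift was not tested. SCD, a fatty acid desaturase, had 1147, 879 and 364 treated reads and 868, 686 and 247 untreated ones. WWTR1, a coactivator of the Hippo pathway also called TAZ, had 385, 429 and 134 treated and 417, 318 and 133 untreated reads. In each the third library was below both others on either side.

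CD44, a receptor for hyaluronan, had 521, 595 and 242 treated reads and 355, 311 and 157 untreated ones. LTBP1, which binds latent TGF-beta, was lower at 2 distant sites, by 2.61-fold and 2.47-fold in treated RNA. JUP, a junction protein, SERPINE2, a protease inhibitor, GALNT1, an enzyme of O-glycosylation, DHCR7, an enzyme of cholesterol synthesis, SLC29A1, a nucleoside transporter, and AMIGO2, an adhesion molecule, were each over 2.0-fold lower in both libraries. TUBA1A was too, at 2.01-fold and 2.11-fold, but alpha-tubulin genes are nearly alike and reads could come from another copy. The control table holds other positions of CD44, JUP, LTBP1, GALNT1, SLC29A1 and TUBA1A, and none of them was over 1.5-fold from the control yardstick downwards in treated replicate 3 of the control. COL1A1, SCD, WWTR1, SERPINE2, AMIGO2 and DHCR7 have no position in it.

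The largest shift upwards was in IGF2, a growth factor, in a span that INS-IGF2 shares. Its C at position 2131721 of chromosome 11 had 242, 235 and 1143 treated reads and 132, 196 and 793 untreated ones, a rise of 4.93-fold and 5.17-fold. The C at position 2131922 had 233, 302 and 1213 treated and 136, 213 and 746 untreated reads. HLA-B, which presents peptides to T cells, had 190, 187 and 526 treated and 112, 114 and 331 untreated reads, with the caution that other class I genes are close copies. In all 3 sites replicate 3 was over 2 times either other library. SUPT5H, an elongation factor of RNA polymerase II, was 2.28-fold and 2.75-fold higher at position 39468689 of chromosome 19, and 1.89-fold and 1.96-fold higher at position 39472459. CLASRP and CCNL2, both of splicing, PDIA5, an isomerase of the endoplasmic reticulum, CDK2AP2, PELP1 and ERVK3-1 made up the rest of the named genes, and 1 site was in no protein-coding gene. NAT10 itself had 317, 407 and 655 treated reads and 399, 412 and 604 untreated ones at position 34146119 of chromosome 11, 1.87-fold and 1.56-fold higher in replicate 3.

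Mismatch levels of replicate 3 were close to the others over all sites and moved where depth moved. The level of mismatched reads summed over sites was 2.06%, 2.10% and 2.17% in replicates 1 to 3. At the 14 sites of low depth the level of their summed reads was 1.41%, 1.44% and 3.65%, with a median of 6, 5 and 4 mismatched reads. At the 11 sites of high depth it was 2.33%, 2.50% and 1.03%, with a median of 4, 4 and 5 mismatched reads. Read numbers with a mismatch thus stayed alike while the depth changed, next to a listing that asks for 3 in every library. COL1A1 showed this at position 50185795, with 9, 4 and 4 mismatched reads, and levels of 1.59%, 0.75% and 6.15%.

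Site by site, replicate 3 was tested against replicates 1 and 2 with two-sided Fisher's exact test on mismatched reads, which compares the libraries and not conditions. A single site of 1001 (0.0999%) passed a Benjamini-Hochberg adjusted p under 0.05, and 31 had an unadjusted p under 0.05. For replicates 1 and 2 tested the same way 0 passed (0.0%), with 16 and 14 at an unadjusted p under 0.05. The listing asked for 3 mismatched reads in each of these libraries, which limits how far their counts can differ. Few calls therefore do not show that the libraries were alike. The site that passed was the C of IGF2 at position 2131922, with 8, 10 and 6 mismatched reads of 233, 302 and 1213. Its level was 3.43%, 3.31% and 0.49%, lower by 2.87 points in replicate 3 (adjusted Fisher's exact p = 0.0083). T led there in replicates 1 and 2, with 8 and 6 reads, and had 1 read in replicate 3. The level was lower at the site whose depth was higher, and against replicate 1 alone or replicate 2 alone no site passed.

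The next 5 sites by p did not pass, with an adjusted p of 0.52 for each (Fisher's exact test). WWTR1 had 8, 7 and 10 mismatched reads and levels of 2.08%, 1.63% and 7.46%, with depth low in replicate 3. YWHAB, an adaptor of the 14-3-3 family, had 3, 5 and 14 mismatched reads of 152, 140 and 137, and here depth was alike in the 3 libraries. At SUPT5H the counts were 9, 8 and 3 of 600, 580 and 1082. NPEPPS, an aminopeptidase, had 3, 3 and 9 A reads of 41, 47 and 31. RALGAPA1, a subunit of a GTPase-activating complex, had 3, 3 and 9 of 35, 21 and 21 reads, led by a different base in each library.

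Gene groups were described beside all tested sites, of which 16.0% were higher and 19.3% lower. Genes of focal adhesion and actin had 11 sites in 8 genes, with 3 higher and a median log2 depth change of 0.24. The 3 higher sites were all in ITGA3, an integrin alpha subunit, and 2 of them are adjacent bases that share reads. Ribosome and translation genes had 12 tested sites, with 3 higher and 2 lower. The rises were 2 neighbouring sites of EEF1G, an elongation factor subunit, and 1 of RPSA2, a close copy of a ribosomal protein gene whose reads could be shared. RPS29 and EIF4A1 had the falls, at -0.46 and -0.31 on the log2 scale.

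Splicing and hnRNP genes had 21 sites, with 2 higher, 5 lower and a median of -0.01. U2AF1, SF3A3, PRPF3, PRPF31 and PRPF19 were lower, and U2AF2 and a site of PRPF8 higher. SF3A3, a subunit of a core splicing complex, had 437, 438 and 353 treated and 583, 494 and 403 untreated reads (log2 -0.56 ± 0.09 SE, edgeR adjusted p = 0.00025). U2AF2, the partner of U2AF1, had 325, 288 and 321 treated and 184, 185 and 150 untreated reads, every treated library above every untreated one. The calls at RPSA2, U2AF1, SF3A3, PRPF3 and U2AF2 held without any one replicate, and those at ITGA3, EEF1G, RPS29, EIF4A1, PRPF8, PRPF19 and PRPF31 were lost without at least 1. RNA helicases had 8 sites, none called, and sites of DDX51, DDX24 and DHX38 were deeper in replicate 3. By median, helicase sites were 0.43 and 0.38 above the other replicates on the log2 scale in treated and untreated replicate 3, against -0.01 and -0.01 for all sites.

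Genes that the study followed had 3 sites. BCAR1, a scaffold of focal adhesions, had 156, 157 and 120 treated and 88, 93 and 93 untreated reads at a T (log2 0.35 ± 0.15 SE, edgeR adjusted p = 0.087). Treated depth was above untreated depth in each pair, but the site did not pass. DIAPH1, an actin-nucleating formin, had 209, 187 and 222 treated and 148, 157 and 238 untreated reads at a C. T was read there in 4, 5 and 4 reads, so this change led in all 3 libraries, at a mean of 2.13% ± 0.47 (SD, n = 3). The C of NAT10 was lower in treated RNA by 0.37 on the log2 scale (SE 0.09, edgeR adjusted p = 0.0074), a call that held in 2 of the 3 fits without a replicate. Its leading base was T in replicates 1 and 3 and A in replicate 2. No site was listed in ITGB5, JUN, PPP1R12C, MBD4, DHX30 or KDM4A among those analysed here.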

How the data were processed

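ac4C-seq of PANC-1 cells gave 6 treated and 6 untreated libraries. The authors trimmed reads with fastp 0.23.1, removed duplicates by 8-base molecular identifiers, and compiled bases with JACUSA; the submitters' notes also name STAR 2.7.6a and GRCh38. The authors deposited base counts per site and library, reference and other-base counts, and the mismatched fraction. The deposited fraction equalled other-base over all reads within 1e-06 at 100% of sites. The authors' difference and p-value columns were not used. Here depth was the sum of base counts, tested with edgeR 4.0.16 (DESeq2 1.42.0 as an alternative) in R 4.3.3, at least 10 reads in every library. Members and gene lists were chosen with earlier results of these data known.

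Pairs share captured RNA, so the pair was a block. Deviations of same-numbered libraries correlated at 0.43, 0.43 and 0.74. Treated replicate 1 with untreated replicate 2 gave 0.38, and treated replicate 2 with untreated replicate 1 gave 0.36. These values thus hardly tell pairs 1 and 2 apart. Named sites were, by rule, the 8 largest consistent calls in each direction, the highest repeated level of each change, the 6 smallest p of replicate 3, and the study's genes. The results on replicate 3 depth, gene position and reference base calls were added after the data were seen. Fisher's and edgeR tests were also run on simulated data. The simulated depths had a single dispersion and no listing rule, so they do not check what the listing does to these counts. Totals were 178646 to 223988 reads per library. Genes came from RefSeq spans, matched without regard to strand. Some results in the gene lists are not reported here.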

Additional observations from a re-analysis of the deposited data

How the results depend on the processing

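Each named depth change kept its sign under the alternatives run. The balance of calls did not, with more higher than lower under total reads only (189 and 145), at least 50 reads (169 and 138), and without replicate 2 (152 and 146), against 156 and 188. The number of calls depended most on the pairing and the tool. With no replicate block 10 sites were called, 3 higher and 7 lower, and with DESeq2 157, 65 higher and 92 lower, with 114 adjusted p-values missing. Leaving out a replicate gave 168 to 298 calls, 74 to 152 higher and 94 to 146 lower, the fewest without replicate 1. No site called in the main result was called the other way under any of these. The causes were not tested.

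The C-to-T share was 14.6% without sites that have a listed neighbour and 12.4% at sites with a mean level of at least 2%. With the leading base alone 3 sites passed for replicate 3, and 0 without replicate 1 or replicate 2. The Wilson lower bound passed the limit of the pair at 2 sites and that of the pooled untreated libraries at 427. The level itself passed the pooled limit at 996, which the listing nearly fixes, so that count is no check.

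The remaining counts were added after seeing the data. Start window sites lower in treated RNA numbered 2 with DESeq2, 5 with total reads only, 4 with at least 50 reads, 0 with no replicate block, 5 with 1 site per gene and 1 to 9 without a replicate. Lower sites in the first 2% of the span numbered 12 with DESeq2, 0 with no replicate block and 12 to 19 without a replicate. Lower A sites numbered 50, 6 and 51 to 73, and higher G sites 13, 0 and 15 to 33, under the same 3 settings.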
